A study of Homo sapiens with 12 samples.

Results

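H3K9me1 regions at chromosome ends are the broad regions that the peak caller listed for histone H3 monomethylated at lysine 9 and whose midpoint lay within 2 Mb of the end of a chromosome. They were taken from both arms of chromosomes 1, 2, 6, 7, 10, 12, 16 and 17 (hg19), 16 arm ends in all, with the q end set at the highest position listed for the chromosome in any of the 8 peak lists of the study. In total 32424 regions were chosen, of 1295587 H3K9me1 regions on these 8 chromosomes and 2269528 regions in the whole study. The rule used position only, so the amount of H3K9me1 at the ends was free to vary.

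The cells were HCT116, a human colorectal carcinoma line, all at passage 19 and all grown in RPMI-1640 with fetal bovine serum. The restricted group had been held for 24 hr in methionine-free medium, which the submitters describe as depletion of methionine and of S-adenosylmethionine (SAM), and the control group was taken at 0 hr. Each group had 2 H3K9me1 libraries, A and B, made from sonicated whole cells with 1 monoclonal antibody, and 2 H3K9me3 libraries. The labels do not say whether A and B were separate cultures, so the spread that the p-values rest on may be purely technical. No unchanged-medium sample at 24 hr was analysed here, so time in culture and restriction cannot be told apart.

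Methionine is the precursor of SAM, the methyl donor of all histone lysine methyltransferases. H3K9me1 is both a mark in its own right and the substrate from which H3K9me2 and H3K9me3 are built, and H3K9me3 is bound by HP1 proteins in constitutive heterochromatin, including that beside telomeres. The bands next to human telomeres are a mixture: many are rich in genes and in GC, while segmental duplications and clusters of olfactory receptor or zinc finger genes lie beside some telomeres.

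The libraries differed in how much was listed, and every density below is therefore relative to the same library. The headers gave 39452512 and 35134998 ChIP reads for restricted A and B, and 30952210 and 31683422 for control A and B. On the 8 chromosomes 186609 and 394290 regions were listed in restricted A and B, against 330926 and 383762 in control A and B. Restricted A stands apart with fewer than any other library, although it had the most reads. The A libraries of this mark were run on lane 2 and the B libraries on lane 3, per the header file names, so comparisons of A with A and of B with B are within a lane.

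The chromosome ends carried close to an average amount of H3K9me1 in both conditions. The end windows held 4414 and 9433 regions in restricted A and B, against 8803 and 9774 in control A and B. These were 2.37% (95% Wilson interval 2.30 to 2.44%) and 2.39% (2.35 to 2.44%) of all regions of the 8 chromosomes in the restricted libraries. They were 2.66% (2.61 to 2.72%) and 2.55% (2.50 to 2.60%) in the control libraries. The windows make up 2.53% of the length, so the share lay just under that in both restricted libraries and at or just above it in both controls. The intervals cover counting error only, and the exact two-sided permutation test over libraries gave p = 0.333, the smallest that 2 libraries against 2 can give.

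By covered length the groups overlapped. The regions covered 6.01% and 14.5% of the end windows in restricted A and B, against 13.4% and 15.6% in control A and B. Divided by the covered share of the 8 chromosomes, this gave a relative density of 1.05 and 0.977 in restricted A and B, against 1.08 and 1.03 in control A and B. The means were 1.01 ± 0.0528 in restricted cells and 1.06 ± 0.0327 in control cells (SD, n = 2 each), and the groups overlapped (exact permutation p = 0.667). Restricted over control was 0.975 within the A libraries and 0.947 within the B libraries. Neither arm side stood out, since the relative density of the p ends was 1.10 and 0.9998 in restricted A and B, against 1.09 and 1.12 in control A and B, and that of the q ends was 1.01 and 0.954 against 1.06 and 0.942.

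Single regions at the ends were short and weak in all 4 libraries. Their median width was 345 and 387 bp in restricted A and B, against 389 and 400 bp in control A and B. Their median fold enrichment over input, as the authors' peak caller gave it, was 1.85 and 1.85 in restricted cells and 1.93 and 1.82 in control cells. The caller's broad mode joins stretches at a loose p cutoff of 0.1, a −log10 p of 1. The median −log10 p of the end regions was 1.23 and 1.30 in restricted A and B, against 1.37 and 1.32 in control A and B, so most regions lay just beyond the cutoff.

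What distinguished the restricted libraries at the ends was the better-supported part of the list. Of the end regions, 14.0% and 18.2% had a −log10 p of at least 1.5 in restricted A and B, against 31.1% and 18.6% in control A and B. Away from the ends the shares were 8.01% and 15.3% in restricted A and B, against 29.8% and 19.96% in control A and B. The level itself thus differed between libraries, with control A the highest, and each library has to be read against its own interior. Per Mb, such regions were 1.61 and 1.12 times as frequent at the ends as over the 8 chromosomes in restricted A and B, against 1.09 and 0.937 times in control A and B. The lower restricted library lay just above the higher control, and within the B libraries the ratio of restricted to control was 1.19 (exact permutation p = 0.333). The difference of the means, 0.347, was 0.103 without restricted A. At a −log10 p of at least 2 the relative numbers were 2.57 and 1.65 in restricted A and B, against 1.11 and 1.32 in control A and B (exact permutation p = 0.333), from 81 and 146 regions in restricted cells and 399 and 110 in control cells. A −log10 p of at least 3 was reached by 11 and 6 end regions in restricted A and B and by 6 and 0 in control A and B. Regions away from the ends were not counted at this cutoff, so these numbers cannot be read as a surplus at the ends.

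The surplus of better-supported regions was spread over many arms. At 10 of the 16 ends both restricted libraries had a higher relative number than both controls, and at none were both lower; over all 614 windows of 2 Mb on the 8 chromosomes, 20.5% had both restricted libraries higher and 16.4% both lower. At a −log10 p of at least 2 it was 6 ends above and 1 below (12p), with 9 overlapping, where 18% of the 604 windows tested were above and 21.9% below. The values of 7q were 2.37 and 1.63 in restricted A and B, against 1.35 and 1.17 in control A and B. Those of 16q were 1.87 and 1.33 in restricted A and B, against 1.14 and 0.785 in control A and B. At 10p, 12p, 16p, 17p, 2q and 7p the groups overlapped.

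By distance, the surplus at a −log10 p of at least 1.5 was clearest in the outermost 500 kb. In the outermost 500 kb the relative number of these regions was 1.52 and 1.26 in restricted A and B, against 0.999 and 0.878 in control A and B. From 1000 to 1500 kb it was 1.58 and 1.08 in restricted A and B, narrowly above control A and B at 1.07 and 0.880. From 500 to 1000 kb it was 1.91 and 1.07 in restricted A and B, against 1.16 and 1.09 in control A and B, and from 1500 to 2000 kb it was 1.42 and 1.06 against 1.14 and 0.896, so the groups overlapped in both steps. Between 2 and 5 Mb from the end it was 1.21 and 1.10 in restricted A and B, against 1.26 and 1.05 in control A and B, so that the groups overlapped there too. At a −log10 p of at least 2, both restricted libraries were above both controls in each 500 kb step of the outermost 2 Mb. From 1500 to 2000 kb the values were 2.29 and 1.54 in restricted A and B, against 1.02 and 1.34 in control A and B. They were still above between 2 and 5 Mb, with 1.35 and 1.46 in restricted A and B, against 1.26 and 1.27 in control A and B. Restricted A carried the larger surplus in each 500 kb step of the outermost 2 Mb.

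A test across windows was made on the covered length of these regions alone, as the stricter setting of the list. With limma over all 614 windows it called 3 of the 16 ends higher in restricted cells, where 2.12% of all windows were called higher and 0.814% lower. The relative covered share of the 12q end was 2.38 and 1.33 in restricted A and B, against 0.875 and 0.650 in control A and B (log2 difference 1.14, SE 0.30, limma adjusted p = 0.0076). The 16q end had 3.98 and 1.70 in restricted A and B, against 1.32 and 0.871 in control A and B (limma adjusted p = 0.0123). The 7p end had 2.84 and 1.005 in restricted A and B, against 0.996 and 0.550 in control A and B (limma adjusted p = 0.0183). There restricted B was barely above control A, and restricted A was the highest library at each called end. The 3 calls were not repeated with a library left out. The 17q end missed the threshold of 0.05, with an adjusted p of 0.0577. Of the 16 ends, 16q, 17q and 7p had the highest local background in every library, taken as the pileup divided by the fold enrichment. The 12q end came next in both A libraries but not in the B libraries. Whether background took part in the 3 calls was not tested.

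**Figure D1:**
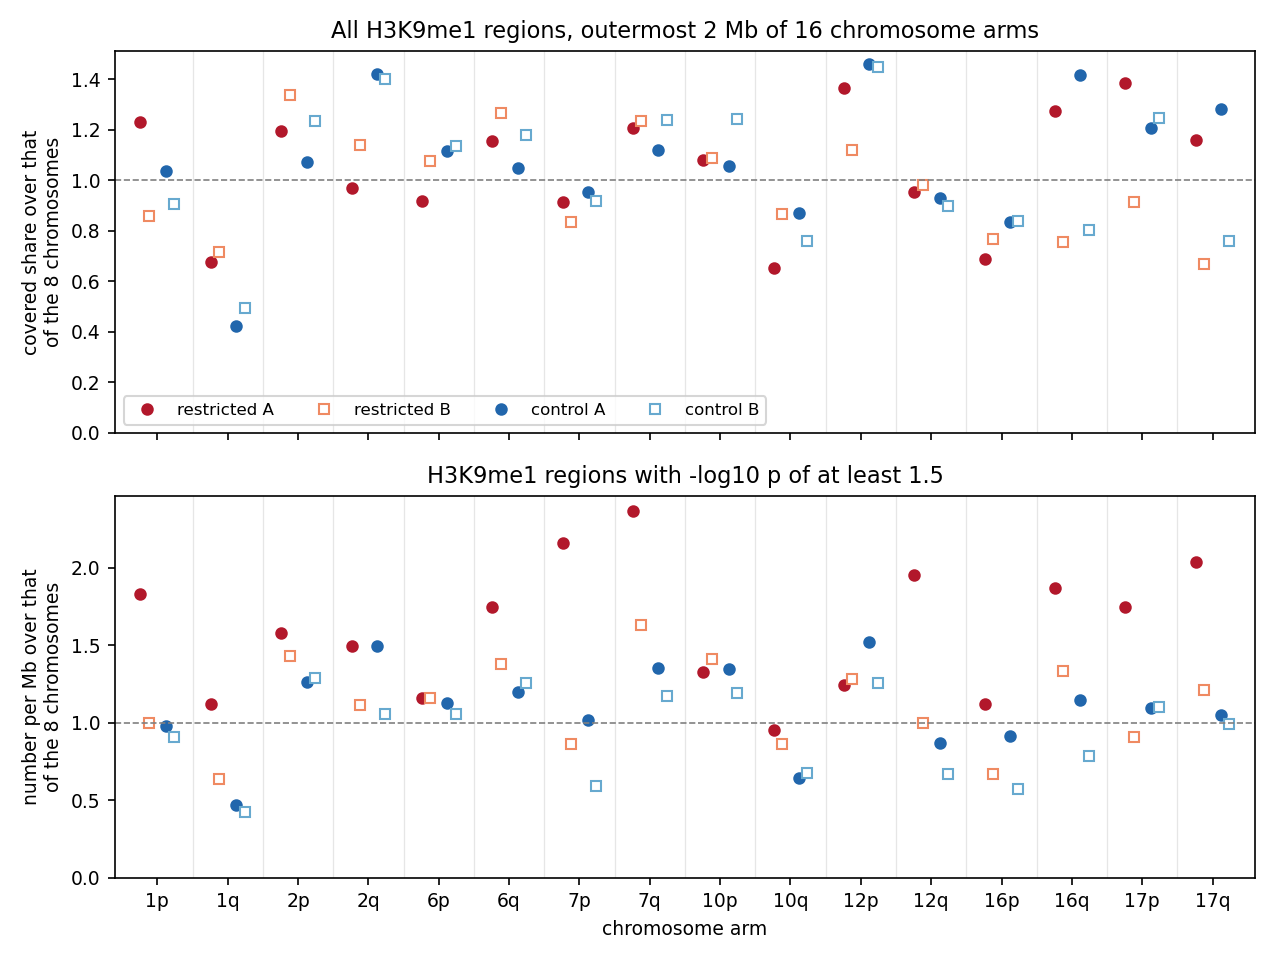
H3K9me1 at the outermost 2 Mb of 16 chromosome arms in each of the 4 libraries, restricted left of control; A libraries are filled circles and B libraries open squares. The upper panel gives the covered share of all regions and the lower panel the number per Mb of regions with a −log10 p of at least 1.5, each divided by the same library's value over the 8 chromosomes (dashed line at 1). In the upper panel 1q and 2q separate most clearly, in opposite directions, and in the lower panel both restricted libraries lie above both controls at 10 of the 16 ends.

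With all regions kept, the arms differed more from each other than the conditions did. The relative density ran over the 16 ends between 0.653 (10q) and 1.38 (17p) in restricted A and between 0.671 (17q) and 1.34 (2p) in restricted B. It ran between 0.424 (1q) and 1.46 (12p) in control A and between 0.496 (1q) and 1.45 (12p) in control B. The highest end was 2.12 and 1.99 times the lowest in restricted A and B, against 3.45 and 2.92 times in control A and B (exact permutation p = 0.333). Over the 16 ends, Pearson r was 0.82 between restricted B and control B, 0.73 between restricted A and control A and 0.72 between the controls. It was 0.61 between restricted A and control B, 0.37 between the restricted libraries and 0.35 between restricted B and control A. These values are a description only, since the ends share library and depth.

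Both restricted libraries lay above both controls at 2 of the 16 ends and below them at 5, against 44% above and 25.7% below among all 614 windows, so the count above was smaller than over the chromosomes as a whole. With limma 0 of the 16 ends passed an adjusted p of 0.05, and 0% of all 614 windows did. At an unadjusted p under 0.05 there were 2 ends, 1q higher and 2q lower, where 37% of all windows reached it. With the letter, and so the lane, as a replicate block, 1q (limma adjusted p = 0.0249) and 2q (0.0385) were called, where 21.3% of all windows were.

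The 1q end held the least H3K9me1 in control cells. It had 0.675 and 0.718 in restricted A and B, against 0.424 and 0.496 in control A and B (log2 difference 0.51, SE 0.14, limma adjusted p = 0.0828). The log2 difference was 0.063 under quantile normalization and 0.043 without scaling. In the RefSeq annotation (GRCh38.p14), 43 of the 50 outermost coding genes of 1q belong to the olfactory receptor family, odorant receptors with names such as OR2T1 that are silent in most tissues. In steps of 100 kb, both restricted libraries exceeded both controls in 13 of the 20 steps of this end and were below them in none. The steps subdivide an end that already separated upward, so they add no separate support. The share over all steps of this size was not counted, and among all bins of 500 kb it was 39.9%. The step from 1200 to 1300 kb had 0.524 and 0.577 in restricted A and B, against 0.0268 and 0.136 in control A and B. The step from 1900 to 2000 kb had 1.78 and 1.54 in restricted A and B, against 0.277 and 0.374 in control A and B. The gene order was read on another genome build than the regions, so no single gene was placed in a step.

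The 2q end lay on the other side. It had 0.968 and 1.14 in restricted A and B, against 1.42 and 1.40 in control A and B (log2 difference −0.39, SE 0.11, limma adjusted p = 0.0828). With the covered length of regions with a −log10 p of at least 1.5 alone, the log2 difference turned to 0.20. Its outermost coding genes in RefSeq order include PDCD1, the immune checkpoint receptor PD-1, and D2HGDH, which oxidises D-2-hydroxyglutarate. Among its 500 kb bins, that from 1000 to 1500 kb had 0.636 and 1.18 in restricted A and B, against 1.72 and 1.45 in control A and B (log2 difference −0.79, limma adjusted p = 0.103). The next bin inward had 0.591 and 1.21 in restricted A and B, against 1.47 and 1.28 in control A and B (adjusted p = 0.198). In both bins most of the difference came from restricted A.

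**Figure D2:**
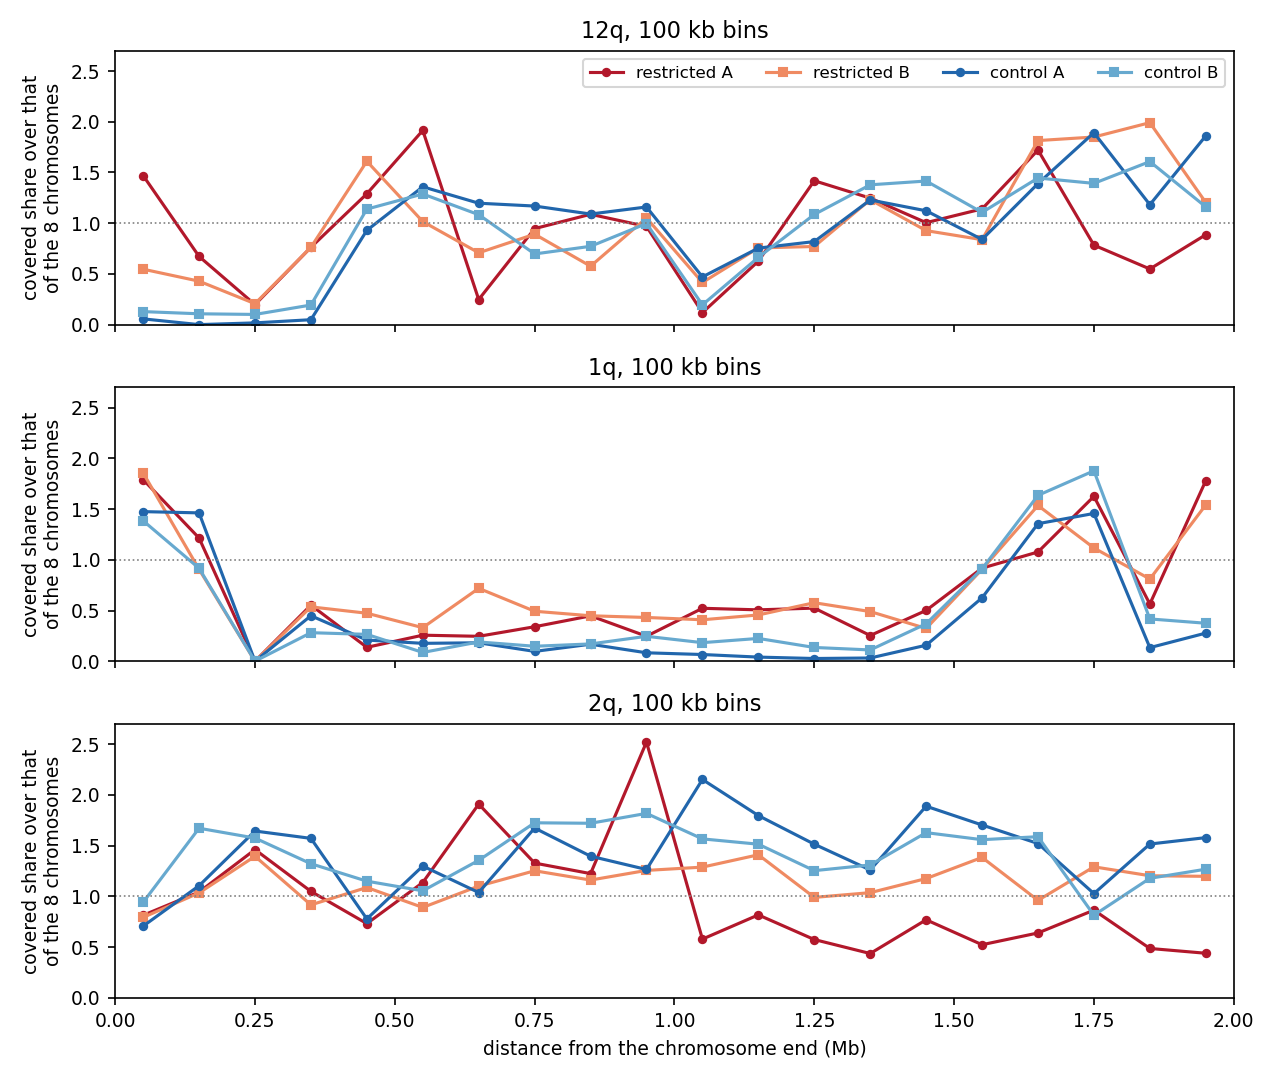
Relative H3K9me1 density in 100 kb steps from the chromosome end to 2 Mb for 12q, 1q and 2q, with 1 line per library (restricted red and orange, control dark and light blue). The 5 outermost steps of 12q and 13 of the 20 steps of 1q have both restricted libraries above both controls, and on 2q restricted A lies below the other 3 libraries in all but 1 of the 10 steps beyond 1 Mb. The share of all 100 kb steps that separate in this way was not counted.

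Of the 64 end bins of 500 kb, 1 passed the test: the outermost 500 kb of 12q, chr12:133341907-133841906, rose in restricted cells. Over all 2435 bins 8.75% were called, 6.86% higher and 1.89% lower. Its relative density was 0.878 and 0.711 in restricted A and B, against 0.210 and 0.333 in control A and B (log2 difference 1.28, SE 0.27, limma adjusted p = 0.0397). Restricted was 4.18 times control within the A libraries and 2.13 times within the B libraries. The log2 values carry a pseudocount of 0.1, which understates the change of sparse bins. The call was lost without control A (adjusted p = 0.0755) and under other settings given in the closing section, where the adjusted p ran between 0.000129 and 0.989.

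In RefSeq order, 7 of the 8 outermost coding genes of 12q encode zinc finger proteins: ZNF268, ZNF10, ZNF891, ZNF140, ZNF84, ZNF26 and ZNF605. Genes of the KRAB zinc finger family, to which ZNF10 (KOX1) belongs, encode repressors that recruit the H3K9 methyltransferase SETDB1 through TRIM28, and clusters of such genes are known to carry H3K9me3 themselves. The outermost 100 kb of 12q had 1.47 and 0.546 in restricted A and B, against 0.0566 and 0.128 in control A and B. The step from 300 to 400 kb had 0.762 and 0.762 in restricted A and B, against 0.0484 and 0.193 in control A and B. All 5 steps of the outermost 500 kb had both restricted libraries above both controls. They subdivide the bin that was called, so they add no separate support. From 500 kb inward the groups overlapped in most steps, and over its whole 2 Mb the 12q end had 0.952 and 0.980 in restricted A and B, against 0.929 and 0.898 in control A and B (limma adjusted p = 0.545). H3K9me3 peaks covered 3.35 and 1.17 kb of this outermost 500 kb in the restricted A and B libraries of that mark, against 1.34 and 0 kb in control A and B.

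The other end bins with the widest separation missed the threshold; at an unadjusted p under 0.05 there were 10 of the 64, where 32.1% of all bins reached it. With the replicate block 9 of the 64 were called, where 21.8% of all bins were. Both restricted libraries were above both controls in 11 of the 64 end bins (39.9% of all bins) and below them in 15 (22.9% of all bins). The 7q bin from 1000 to 1500 kb had 1.19 and 0.971 in restricted A and B, against 0.608 and 0.798 in control A and B (limma adjusted p = 0.0781). In the olfactory receptor arm, sparser bins differed more, and were singled out after their values were seen. The 1q bin from 1000 to 1500 kb had 0.461 and 0.451 in restricted A and B, against 0.0646 and 0.205 in control A and B (log2 difference 1.31, SE 0.35, limma adjusted p = 0.0553). The 1q bin from 500 to 1000 kb had 0.307 and 0.484 in restricted A and B, against 0.141 and 0.168 in control A and B (log2 difference 0.94, limma adjusted p = 0.0838). The innermost bin of the 1q end, from 1500 to 2000 kb, had 1.19 and 1.18 in restricted A and B, against 0.770 and 1.04 in control A and B (limma adjusted p = 0.178).

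The 16p end, like the 2q end, held 2 of the 5 most separated bins on the low side. The outermost 500 kb of 16p had 0.393 and 0.649 in restricted A and B, against 0.828 and 0.784 in control A and B (log2 difference −0.58, limma adjusted p = 0.128). This arm carries the alpha-globin genes HBA1 and HBA2 among its outermost genes, at places 11 and 10 in RefSeq order. The bin from 1500 to 2000 kb had 0.866 and 0.845 in restricted A and B, against 1.19 and 1.27 in control A and B (adjusted p = 0.064). Between them, the bin from 500 to 1000 kb had 0.765 and 0.904 in restricted A and B, against 0.643 and 0.624 in control A and B (adjusted p = 0.192). The 6p end, whose outermost genes are DUSP22 (a dual-specificity phosphatase) and IRF4 (a lymphoid transcription factor), had 0.920 and 1.08 in restricted A and B, against 1.12 and 1.14 in control A and B (limma adjusted p = 0.283).

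At 7 of the 16 ends the letter, and with it the lane, separated the libraries where the condition did not. The condition separated 2 ends upward and 5 downward. The share of all windows that the letter separated was not counted, so the 7 ends cannot be read as a trait of the ends. Both A libraries were above both B libraries at 1p, 16q and 17q, and below them at 2p, 6q, 7q and 10p. The gap was widest at 16q and 17q. The 16q end, which carries MC1R and FANCA (the melanocortin receptor and a Fanconi anaemia gene), had 1.27 and 0.754 in restricted A and B, against 1.42 and 0.805 in control A and B. The 17q end, which carries FASN (fatty acid synthase) and ACTG1 (gamma-actin), had 1.16 and 0.671 in restricted A and B, against 1.28 and 0.760 in control A and B. A over B was 1.69 in restricted and 1.76 in control cells at 16q, and 1.73 and 1.68 at 17q. These ends also had the highest local background, the pileup divided by the fold enrichment: it was 1.74 to 2.08 times that of the rest of the chromosomes over the 4 libraries, against 0.952 to 1.45 times at the other 14 ends. Whether background took part in the A to B difference was not tested. The values within lanes are 0.898 (A) and 0.937 (B) for 16q and 0.905 (A) and 0.882 (B) for 17q. The innermost bin of 16q, from 1500 to 2000 kb, had 0.608 and 0.494 in restricted A and B, against 1.28 and 0.692 in control A and B (limma adjusted p = 0.139).

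By distance, control cells carried a shoulder just inside the end windows. Between 2 and 4.5 Mb from the end the relative density was 0.952 and 1.05 in restricted A and B, against 1.25 and 1.18 in control A and B (exact permutation p = 0.333). Between 0 and 2 Mb the groups overlapped. The outer windows over the next 2.5 Mb gave 1.10 and 0.931 in restricted A and B, against 0.861 and 0.874 in control A and B. Of the 20 bins of 500 kb between the end and 10 Mb, 14 had both restricted libraries below both controls and none had both above. The bins from 10000 to 10500 kb and from 10500 to 11000 kb were below too, and those from there to 12000 kb overlapped. Bins further inward were not pooled in this way, so the 14 cannot be read as a trait of the ends.

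**Figure D3:**
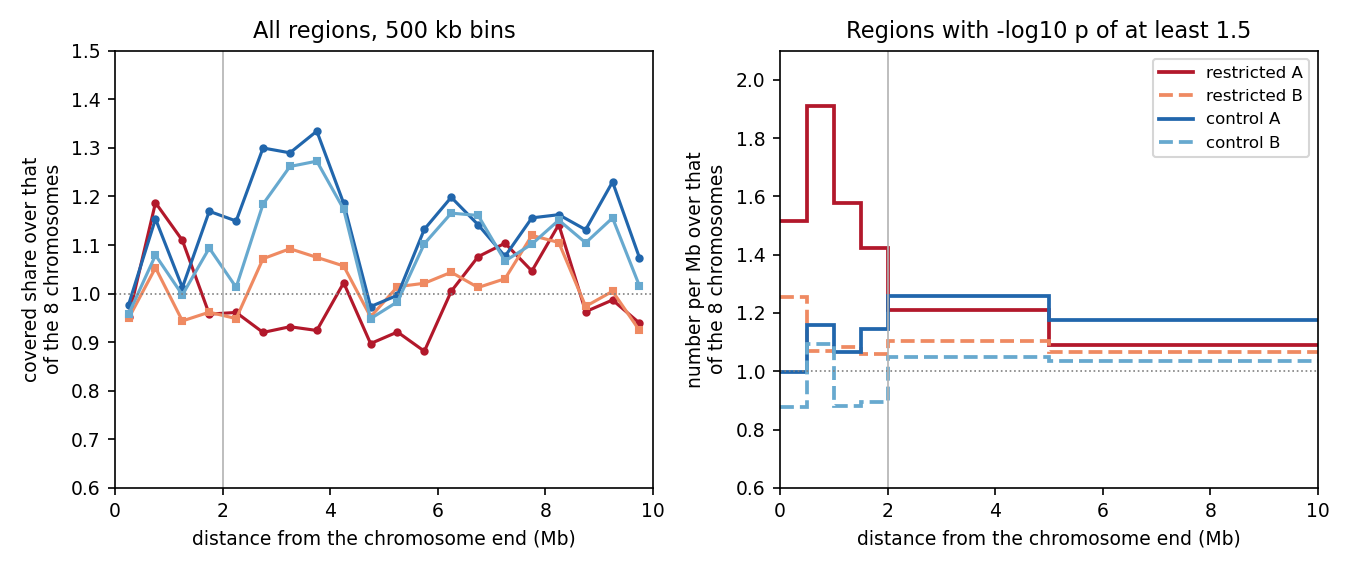
H3K9me1 by distance from the chromosome end, averaged over the 16 ends, with the limit of the end windows at 2 Mb marked; both vertical axes begin at 0.6. The left panel gives the covered share of all regions in 500 kb bins, where both controls lie above both restricted libraries between 2 and 4.5 Mb. The right panel gives the number of regions with a −log10 p of at least 1.5. There both restricted libraries exceed both controls in the outermost 500 kb and, narrowly, from 1000 to 1500 kb. Each value is divided by the library's value over the 8 chromosomes.

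At the very tip the order turned with both arm sides pooled, and this came from the q ends. In the outermost 20 kb the relative density was 1.14 and 0.860 in restricted A and B, against 0.772 and 0.792 in control A and B. From 20 to 50 kb it was 0.875 and 0.783 in restricted A and B, against 0.762 and 0.707 in control A and B. The region nearest to the end lay a median of 3.26 and 2.23 kb from it in restricted A and B, against 6.14 and 5.39 kb in control A and B, over 16 ends each. At 6p, 10p, 12p and 16p no library had a region within 60 kb, and at 1p, 2p and 7p none within 10 kb. The nearest region of any library began at 60.3 to 61.0 kb on the former and at 10.0 to 11.6 kb on the latter. Distances were counted from the first base at p ends and from the highest listed position at q ends. Any outermost sequence that no read can be placed on thus counts as empty at p ends and not at q ends. Whether these stretches can hold a region was not tested. Placement of reads here is uncertain, because sequence next to telomeres is shared between chromosomes and how reads with several matches were handled is not given in the sources used here.

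The strongest end regions were single short stretches. The highest −log10 p at any end was 5.48, for a 158 bp region of restricted A at chr2:242838638-242838795 on 2q with a fold enrichment of 4.10. In restricted B the highest was 4.91. In the controls it was 3.95 in A, on 7q, and 2.91 in B.

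H3K9me1 covered far more of the H3K9me3 sequence at the ends in the restricted libraries than in the controls. The 4 H3K9me3 lists merged to 124 regions within the end windows, 123 kb in all. H3K9me1 regions covered 40.0% and 36.3% of this sequence in restricted A and B, against 3.78% and 8.08% in control A and B (exact permutation p = 0.333). Relative to each library's own cover of the 8 chromosomes that was 6.997 and 2.45 times in restricted A and B, against 0.304 and 0.533 times in control A and B. H3K9me1 was thus over-represented on H3K9me3 sequence in the restricted libraries and under-represented on it in the controls.

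The same difference was present in the rest of the chromosomes but was smaller there. H3K9me1 covered 25.8% and 23.3% of the 1257 H3K9me3 regions outside the ends in restricted A and B, against 6.47% and 8.05% in control A and B. The cover at the ends was 1.55 and 1.56 times that of the rest in restricted A and B, against 0.585 and 1.004 times in control A and B (exact permutation p = 0.333).

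H3K9me1 touched 85 and 81 of the 124 regions in restricted A and B, against 20 and 33 in control A and B. It touched 33 in both restricted libraries and neither control, and none the other way round; of all 1381 H3K9me3 regions of the 8 chromosomes, 20.7% were touched in this way in both restricted libraries and neither control, and 0.362% the other way. At 15 of the 16 ends both restricted libraries covered more of the H3K9me3 sequence than both controls did, where 52.8% of the 426 windows of 2 Mb with an H3K9me3 region did so and 0.704% showed the opposite. At 10q the groups overlapped, with 2.86% and 26.8% in restricted A and B, against 2.46% and 4.86% in control A and B. The ends held 124 of the 1381 H3K9me3 regions in 16 of the 426 windows, so more per window than elsewhere. A window in which a restricted library had no cover counted as not above, so the 52.8% is not a like base for the ends. The number of H3K9me3 regions per end was still small, 1 at 6p and at most 16, at 7q. There H3K9me1 covered 51.7% and 40.1% of the H3K9me3 sequence in restricted A and B, against 4.999% and 2.61% in control A and B.

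**Figure D4:**
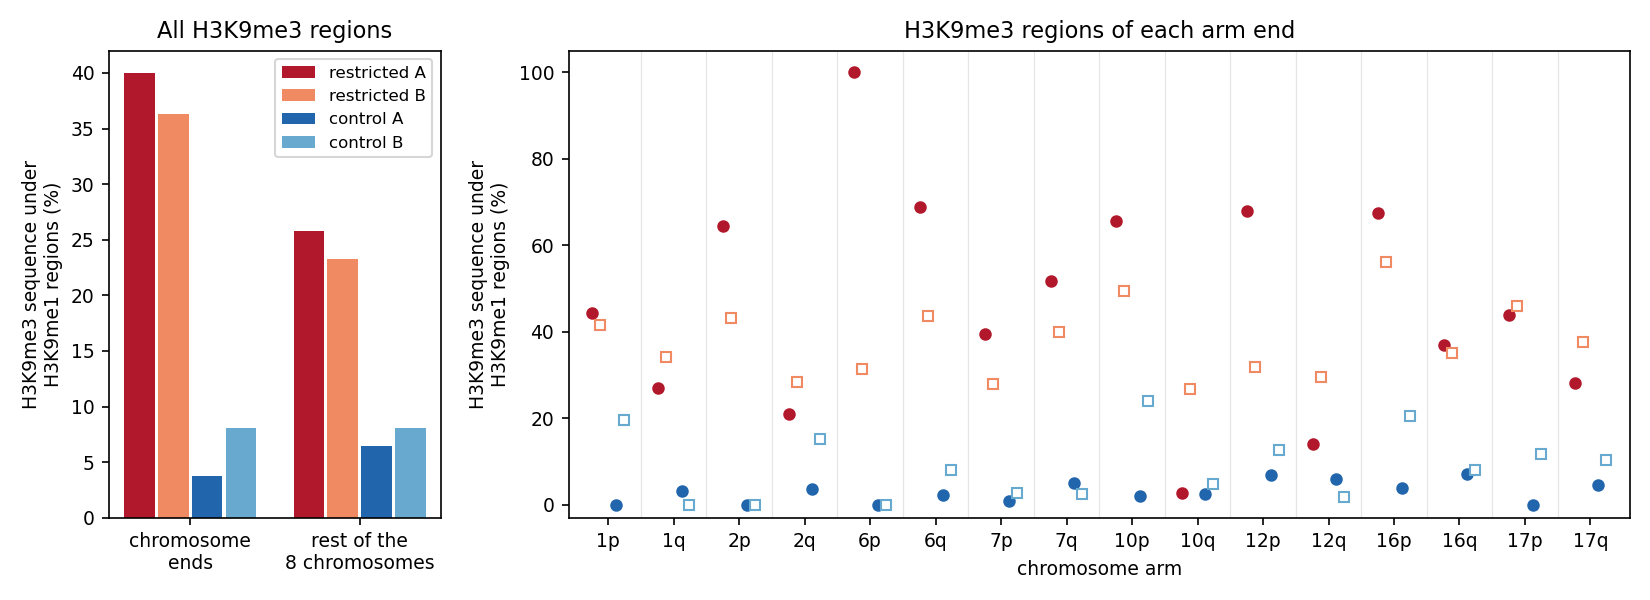
Share of merged H3K9me3 sequence that lies under H3K9me1 regions in each H3K9me1 library, restricted left of control. The left panel sums all H3K9me3 regions of the ends and of the rest of the 8 chromosomes, and the right panel gives each arm end (A filled circles, B open squares). Restricted libraries reach 40.0% and 36.3% at the ends against 3.78% and 8.08% in controls, and 10q is the end at which the groups overlap.

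The difference was also present on H3K9me3 peaks from control cells, where it was smaller than on those from restricted cells. On the peaks of the 2 restricted H3K9me3 libraries alone, the H3K9me1 cover was 48.1% and 38.6% in restricted A and B. In control A and B it was 4.88% and 7.13%. On the peaks of the 2 control H3K9me3 libraries alone, H3K9me1 covered 35.9% and 34.3% in restricted A and B, against 2.19% and 5.87% in control A and B. On the peaks of its own sample's H3K9me3 library it covered 52.0% and 44.1% in restricted A and B, against 2.45% and 2.06% in control A and B. The 2 marks of a sample were called against the same input library in every case, restricted and control alike. H3K9me3 itself was concentrated at the ends in both conditions, at 3.56 and 3.12 times its density over the 8 chromosomes in restricted A and B, against 4.25 and 2.49 times in control A and B.

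One feature of the sequencing ran along with the conditions. Per the header file names, restricted A shared its lane and the first of its paired indexes with the control B library of H3K9me3, and restricted B with the restricted A library of H3K9me3. Neither control H3K9me1 library shared an index with an H3K9me3 library on its lane, so a contribution of reads exchanged between such libraries and that of the condition cannot be told apart. H3K9me1 of restricted A covered 40.0% of the end peaks of the H3K9me3 library it shared an index with. It covered 52.0% of those of restricted A, 33.4% of those of restricted B and 37.2% of those of control A. None of these 3 shared both lane and first index with it, but H3K9me3 of restricted B was run on its lane. H3K9me1 of restricted B covered 35.9% of the end peaks of the H3K9me3 library it shared an index with. It covered 44.1% of those of restricted B, 36.6% of those of control A and 39.6% of those of control B. Of these, H3K9me3 of control A was run on its lane with another first index. In both, the highest cover was on the sample's own H3K9me3 peaks, which came from the other lane. The H3K9me3 lists overlap at the ends, where 75 and 26 restricted and 69 and 29 control peaks merged to 124 regions. Cover per list therefore cannot separate the condition from exchanged reads, and such exchange was not tested.

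The better-supported end regions met H3K9me3 too. Of those with a −log10 p of at least 2, 22.2% and 7.53% touched an H3K9me3 region in restricted A and B, against 0.501% and 1.82% in control A and B. These were 18 of 81 and 11 of 146 regions in restricted A and B, against 2 of 399 and 2 of 110 in control A and B. Away from the ends 5.25% and 2.04% did so in restricted A and B, against 0.341% and 0.597% in control A and B, so the contrast between conditions was not limited to the ends. Most better-supported end regions of the restricted libraries lay outside the listed H3K9me3 peaks.

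Few single regions were shared between libraries. Merged over the 4 libraries, the ends held 18948 regions, of which 59.0% came from 1 library. All 4 libraries had 856 (4.52% at the ends, 4.64% in the rest of the chromosomes). Both restricted libraries and neither control had 501 (2.64% and 2.60%), and both controls and neither restricted library had 1268 (6.69% and 5.85%). With the same number of regions taken from each library, 518 were in both restricted libraries only (3.98% at the ends, 3.61% in the rest). Those in both controls only were then 583 (4.48% and 4.27%). The base-pair Jaccard index at the ends was 8.99% between the restricted libraries, 14.2% between the controls and 6.76 to 13.0% across conditions, so replicates matched hardly better than conditions.

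The widest merged regions show what such a region looks like. The widest present in all 4 libraries, chr10:1104001-1110119 on 10p, spanned 6119 bp, of which H3K9me1 regions covered 679 and 1826 bp in restricted A and B, against 3243 and 3911 bp in control A and B. The widest in the restricted libraries only, chr17:408167-411436 on 17p, had 1803 and 2050 bp in restricted A and B and none in either control. The widest in the controls only, chr17:79786508-79790188 on 17q, had none in either restricted library and 3230 and 1243 bp in control A and B. Next in width among those of all 4 libraries were chr1:1656272-1661840 on 1p and chr16:90057216-90062639 on 16q. Among those of the restricted libraries only they were chr16:957090-959691 on 16p and chr7:157674380-157676777 on 7q, and among those of the controls only chr12:1641163-1644681 on 12p and chr2:242714301-242717569 on 2q.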

How the data were processed

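The authors' deposited region lists of 4 H3K9me1 and 4 H3K9me3 libraries were used. Reads had been placed on hg19; the submitters' processing notes name MACS2 (2.1.1.20160309), Bowtie2 (2.1.0) and SAMtools (1.5) with no roles. Per the file headers, MACS2 called H3K9me1 in broad mode with p cutoffs of 0.0001 and, for the weak level, 0.1, each library against its own sample's input. Per the file headers the deposited columns are pileup signal, −log10 p (for H3K9me3 also −log10 q) and a fold ratio over local background; none is a read count, so depth per window is unknown.

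Covered length per 2 Mb or 500 kb window, counted from the chromosome ends, was divided by the library's covered share of the 8 chromosomes. log2(value + 0.1) was fitted with limma 3.58.1 (trended, robust; R 4.3.3) on windows covered in at least 2 libraries, over all windows, with Benjamini-Hochberg adjustment; single values were tested by exact two-sided permutation. All 16 ends are reported; bins were named if called, or as the 5 most separated per direction with a mean density of at least 0.5, of which 1 is not reported here; merged regions by width. Members, lists and thresholds were chosen with earlier results of these data known; the H3K9me3 overlap and the numbers of stricter regions were added after seeing the data; covered length at the stricter p was listed with the other settings. Fits and interval code were tested on simulated data. Gene order came from RefSeq (GRCh38.p14) by arm, without coordinates. Scaling by the library's own cover hides any change shared by all chromosomes.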

Additional observations from a re-analysis of the deposited data

How the results depend on the processing

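The difference in relative density of the ends between restricted and control libraries was −0.041 and stayed below 0 with ends of 1 or 5 Mb, equal numbers of regions, region numbers, all listed chromosomes as the base, each chromosome left out and region-free stretches left out. With a −log10 p of at least 1.5 it turned to 0.739, and the log2 ratio of ends to interior, −0.059 with all regions, to 0.757. Leaving out each library kept the sign of both, with differences of −0.0782 to −0.00356 in density.

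H3K9me1 cover of the H3K9me3 regions of the ends was higher in restricted cells under every setting tried, by 20.1 to 37.4 percentage points, and by 30.1 to 34.4 with each library left out. Of the merged regions, 13 were in all 4 libraries when regions had to overlap by at least 0.5 of the shorter one's length, 13 at a −log10 p of at least 1.5 and 246 with equal numbers of regions. Those in both restricted libraries only numbered 91 at the stricter p (1.54% at the ends, 0.475% in the rest). Those in both controls only numbered 222 there (3.75% and 4.34%) and 583 with equal numbers (4.48% and 4.27%).

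Among the 16 arm ends, 0 were called by limma with all regions. The letter as a replicate block gave 2 (1q and 2q), and so in number did the crossed pairing and equal numbers of regions; the stricter p gave 3, and leaving out each library 0 to 6, with 4 without restricted A and 6 without restricted B. The letters pair no shared culture in the labels: differences of A and B correlated between the conditions at 0.68 over the 16 ends and at −0.10 over all 614 windows, so the crossed pairing was added after seeing the data. Among the 64 end bins, 1 was called with all regions, 0 with no scaling, quantile normalization, a pseudocount of 0.01, no filter on sparse windows, the stricter p, 250 kb bins or 1 Mb bins, 2 with a pseudocount of 0.5, 9 under the replicate block, 9 under the crossed pairing, 4 with equal numbers and 0 to 17 with each library left out (15 without restricted A, 17 without restricted B, 0 without control A, 5 without control B). With 1 library left in a group, that library is assumed to vary like the others. The 12q bin kept its direction throughout, with log2 differences of 0.70 to 1.54.

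Without scaling, the median log2 difference of all windows was −0.44, and 2p (−0.39), 6q (−0.40), 12q (−0.43), 7q (−0.47) and 1p (−0.44), with the bins of 1q at 1500 kb (−0.14) and of 16p at 500 kb (−0.13), turned negative. Quantile normalization turned 1p (−0.011). At the stricter p, 2q (0.20), 16p (0.65), 6p (0.14), 7p (1.09), 10p (0.57), 10q (0.69), 17p (0.52), 17q (0.90) and 16q (1.21) turned positive, with the bins of 16q (0.30) and 16p (0.013) at 1500 kb. With equal numbers 10q (0.15), 7q (−0.031) and 16q (0.021) turned. With each library left out, the log2 difference ran between −0.18 and 0.032 at 10p, −0.28 and 0.079 at 10q, −0.49 and 0.26 at 16q, −0.39 and 0.16 at 17p, −0.50 and 0.21 at 17q, −0.16 and 0.32 at 1p, and −0.017 and 0.11 at 7q. The cause of these turns was not tested. Read depth per region is not in the lists, so small windows cannot be weighted by it, and 2 libraries against 2 cannot give an exact p below 0.333.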
